A study of Mus musculus with 30 samples.

Results

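The data set out here are 6 of the 30 microarrays of the series, 3 of olfactory epithelium from SR-A mutant mice at 48 hpO and 3 at 16 hpO, chosen by their titles and compared across all genes. The mice were 6 weeks old, and the series concerns the removal of both olfactory bulbs; the labels do not expand hpO, and its number is read here as hours on the scale of the operation. Whether the 0 h mice were operated on is not stated there. SR-A is a scavenger receptor of macrophages, of class A, whose gene is Msr1, and the kind of mutation, the strain and the sex are not given in the sources used here. Wild type arrays at 16 and 48 h, 3 of each, served for comparison, with mutant arrays at 0 and 8 h for the levels before. Tissue was microdissected, so that each array measured total RNA of all cell types in the piece taken. The design text speaks of 3 mice of each genotype. Neither it nor the labels tie arrays to mice, and p-values then reflect only how far these arrays spread, some of which may be technical.

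The olfactory epithelium holds sensory neurons whose axons end in the olfactory bulb, supporting (sustentacular) cells rich in detoxifying enzymes, basal stem cells, secretory glands beneath it and resident macrophages. Removing the bulb takes away the target of the sensory axons. Mature neurons then die by apoptosis over the following days, macrophages enter and clear debris, and basal cells divide to replace the neurons. Scavenger receptors of class A bind modified lipoproteins, bacterial surface molecules and cell debris at the macrophage surface.

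The 3' minus 5' log2 difference of the Gapdh control probe sets lay between -0.31 and -0.20 in the 6 arrays. That of the actin control probe sets was 0.66, 0.93 and 0.77 at 16 h and 1.11, 0.80 and 0.92 at 48 h, the first 48 h array being the highest of the 27 fitted. Without that array 898 probe sets passed the adjusted threshold of 0.05 used below, against 627 with it. Whether the actin difference had a part in this was not tested. Within groups the arrays were less alike at 48 h than at 16 h, with a median standard deviation of 0.197 against 0.151 in log2 signal and a mean pairwise correlation across probe sets of at most 0.961 against at least 0.972. With 3 arrays in each group, precision was limited. Msr1 gave 428, 444 and 374 at 16 h and 469.7, 441 and 298 at 48 h in replicates 1, 2 and 3, against means of 126 ± 86.9 and 232 ± 63 (SD, n = 3) in the wild type arrays, so on its brighter probe set the targeted gene was not lower in the arrays labelled mutant. Its other probe set had means of 270.6 at 16 h and 195.3 at 48 h in those arrays and was not compared with wild type. Both were too dim to be tested, and it is not known here where in the altered gene the probes lie. The groups are therefore called mutant-labelled and wild-type-labelled, and every direction between genotypes rests on those labels. Omp, the defining marker of the sensory neurons, was bright in every array, while the basal keratin Krt5 gave 59, 194 and 35.2 at 16 h and 31.3, 74.1 and 47.9 at 48 h and Krt14 15.9, 43.4 and 49.2 at 16 h and 87.3, 62.9 and 21.3 at 48 h. Except for the second 16 h array of Krt5 these lay below 113.7, the floor to which low signals were raised.

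Between 16 and 48 h, 627 of 6968 tested probe sets passed an adjusted p of 0.05 in the mutant-labelled epithelium, 280 (4.02%) higher and 347 (4.98%) lower at 48 h. With 1 probe set per gene, 237 of 5396 genes (4.39%) rose and 266 (4.93%) fell. Every count by list given below is to be read beside these shares. The median change of all tested genes was 0.01 on the log2 scale, and in 23.6% of them the 3 arrays of one time did not overlap the 3 of the other. Changes are given as log2 of 48 h over 16 h ± standard error from limma fitted to 27 arrays, with Benjamini-Hochberg adjusted p over the tested probe sets; signals are MAS5 units in the order of replicates 1, 2 and 3. The count was 302 without 48 h replicate 2, 343 without 16 h replicate 2 and 898 without 48 h replicate 1. With the spread taken from the 6 arrays alone 57 probe sets passed, 53 of them among the 627, while 1113 had an unadjusted p under 0.05. Of 113 genes that the naming rule picked among those that changed, 29 passed in that fit of the 6 arrays alone. Where the fits that lost a gene are listed below, that fit is left out unless it is named. Of the 113, 53 passed whichever of the 6 arrays was left out and 24 passed under every alternative run. Those 24 were Acy1, Adcy3, AU021092, Bnip3, C1qc, Calb1, Car4, Crym, Cyp1a1, Cyp1a2, Dbp, Ect2, Epha5, Fgf12, Fmo5, Hmox1, Ibsp, Kif9, Lox, Mgst2, Pgd, Pxmp2, Rgr and Slc8a1.

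**Figure D1:**
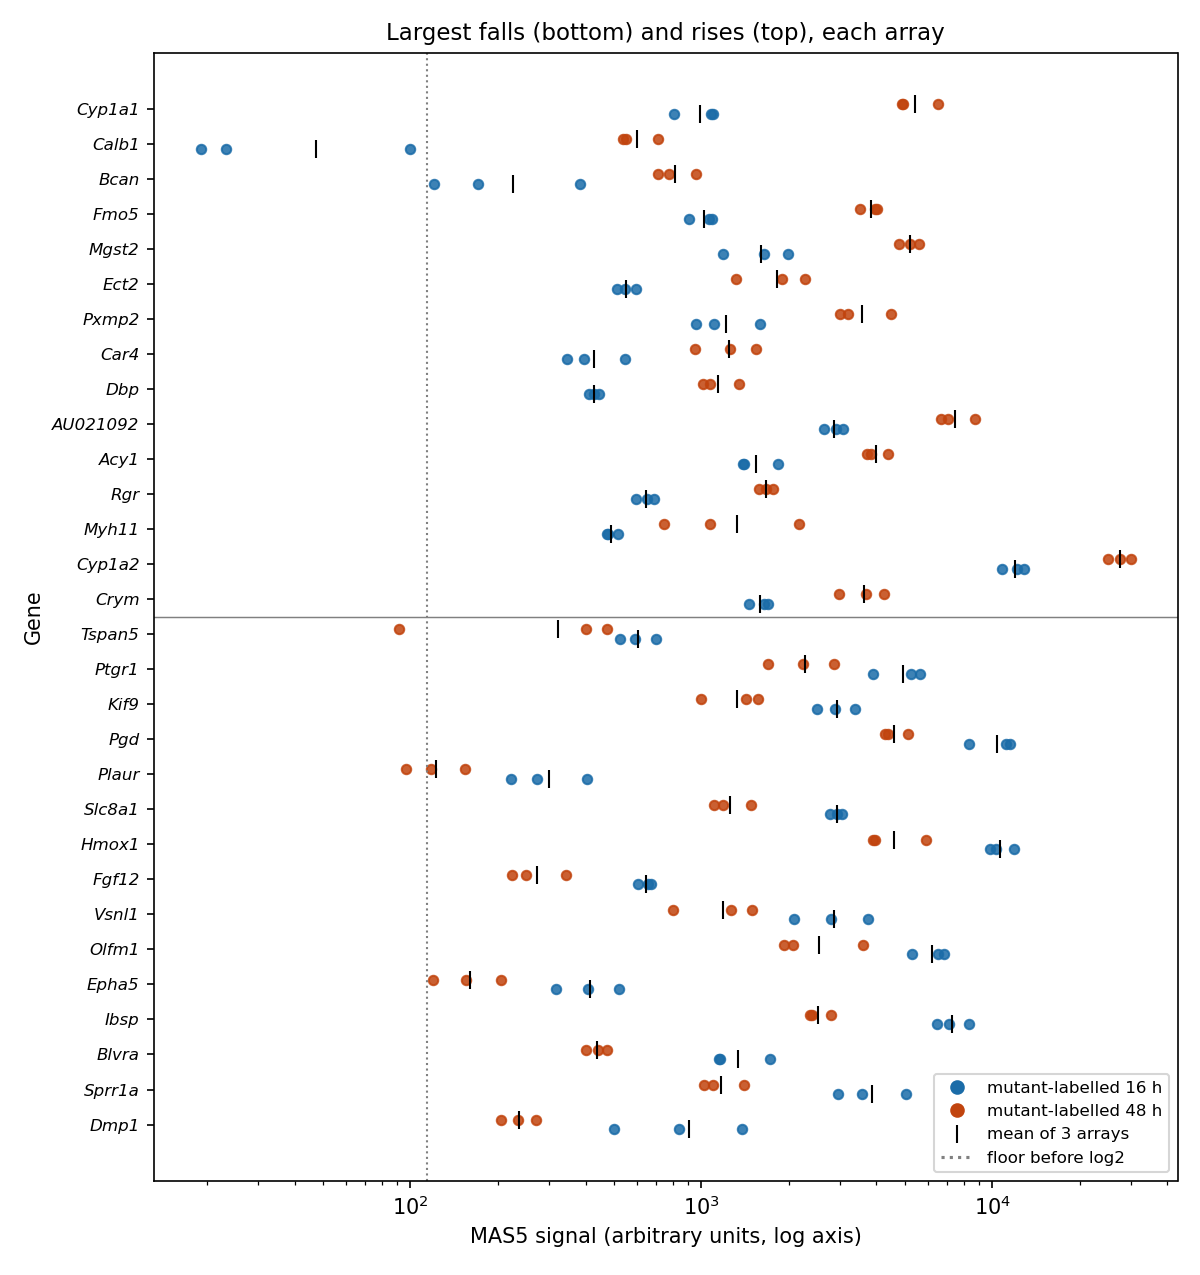
MAS5 signal on a log axis of the 15 genes with the largest falls (below the line) and the 15 with the largest rises (above it) among genes past the threshold whose 16 h and 48 h arrays did not overlap; each point is 1 mutant-labelled array, ticks are means of 3 and the dotted line is the floor of 113.7. The 3 Calb1 arrays at 16 h lie below the floor, and Cyp1a1 and Fmo5 show wide gaps between the times, while Tspan5 has 1 array at 48 h far below the other 2.

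Among genes of mature olfactory sensory neurons falls outnumbered rises at 48 h. Of 20 tested genes of that list 10 fell and 1 rose, with a median change of -0.42, against 4.93% of all genes falling. In whole tissue, fewer neurons and less RNA per neuron cannot be told apart. Adcy3, the adenylyl cyclase of odorant signalling, gave 7609.9, 6447 and 7474 at 16 h and 4123, 2878 and 3600.5 at 48 h. The 48 h arrays all lay below the 16 h arrays, and the change was -1.03 ± 0.13, adjusted p = 8.72e-05. Cnga2, a subunit of the cyclic nucleotide-gated channel that opens on odorant binding, gave 10679.7, 10564 and 10105 at 16 h and 8142, 4728 and 6570.2 at 48 h (-0.72 ± 0.15, adjusted p = 0.00471). Its other probe set changed by -0.66 (adjusted p = 0.0102). Omp, the marker protein of mature sensory neurons, gave 35962, 40155 and 36190.3 at 16 h and 23806, 19230.3 and 26773 at 48 h (-0.70 ± 0.11, adjusted p = 0.000603). For both genes replicate 2 was the lowest array at 48 h, and neither overlapped the 16 h arrays. With all 30 arrays fitted, Omp did not pass (adjusted p = 0.707). Olfm1, a secreted glycoprotein of neurons, gave 5316, 6849 and 6513 at 16 h and 3596, 1929 and 2073 at 48 h, a 2.54-fold fall (-1.35 ± 0.17, adjusted p = 6.48e-05), with replicate 1 the highest of the 48 h arrays.

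The other neuronal members that fell were Reep1, which helps bring odorant receptors to the surface (-0.87 ± 0.14), Cidea (-1.08 ± 0.26), Syt1, a calcium sensor of vesicle release (-0.81 ± 0.15; adjusted p = 0.319 with all 30 arrays), and Plxna3, Nsg1 and S100a5, of which the last 3 are outside the naming rule and named because they complete the count. Cidea did not pass without 16 h replicate 2 (adjusted p = 0.0509) or 48 h replicate 2 (adjusted p = 0.0743), and S100a5, a calcium-binding protein of these neurons, not without 16 h replicate 2 (adjusted p = 0.137) or 48 h replicate 3 (adjusted p = 0.0868). The potassium channel gene Kcnk1, also outside the rule, rose (0.55 ± 0.17, adjusted p = 0.0492), a call lost in 4 of the 6 fits that left out 1 array, with adjusted p of 0.105 to 0.158; the 2 that kept it left out 16 h replicate 3 or 48 h replicate 2. The list's count of genes that fell lay between 8 and 11 in those 6 fits. Gap43, a growth cone protein of immature neurons, gave 7008, 7848 and 5299.8 at 16 h and 11382, 9749 and 5807 at 48 h, and its arrays overlapped (0.38 ± 0.22, adjusted p = 0.305). Of 22 tested immature neuron genes 2 rose, against 4.39% of all genes, and 0 fell, with a median of 0.07. The 2 were Cxcr4 (0.51 ± 0.16) and Basp1 (0.48 ± 0.13). The other tested Basp1 probe set changed by 0.40 (adjusted p = 0.112). Cxcr4 did not pass without 16 h replicate 1, 2 or 3 or 48 h replicate 1 or 2, and Basp1 not without 16 h replicate 3 or 48 h replicate 2 or 3. Of 15 tested genes of ciliated cells 2 fell, Mlf1 (-0.67 ± 0.16) and Cetn2 (-0.34 ± 0.11), against 4.93% of all genes. Mlf1 did not pass without replicate 3 of either time, and Cetn2 in 5 of the 6 fits that left out 1 array.

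Some genes of no list were named for the size of their fall, among genes whose arrays did not overlap. Slc8a1, a sodium-calcium exchanger, gave 2932, 3053 and 2778 at 16 h and 1476, 1183 and 1102 at 48 h, falling 2.35-fold (-1.23 ± 0.12, adjusted p = 2.70e-06). Fgf12, which binds the inner face of sodium channels, gave 672, 604 and 654 at 16 h and 342, 250.4 and 224 at 48 h (-1.27 ± 0.16, adjusted p = 7.54e-05). Vsnl1, a neuronal calcium sensor, gave 2786, 2085 and 3728 at 16 h and 1498, 799.6 and 1268 at 48 h (-1.28 ± 0.24, adjusted p = 0.00227). In none of the 3 did the times overlap, which the naming rule required of them, and the 16 h arrays of Slc8a1 and Fgf12 lay close together. Epha5, a receptor for ephrins that guides axons, was dim, at 315, 519.6 and 407 at 16 h and 204, 119.9 and 155 at 48 h (-1.38 ± 0.25, adjusted p = 0.00175). The kinesin gene Kif9 fell 2.22-fold (-1.15 ± 0.21, adjusted p = 0.00217), and by 0.79 on its other probe set. Among 25 tested synaptic vesicle genes, whose median was -0.38, 4 fell, among them Syt1 and Snap25, a protein of the vesicle fusion machinery (-0.79 ± 0.17, adjusted p = 0.00495), and 2 rose, Calb1 and Rab3d, a vesicle GTPase (0.45 ± 0.14, adjusted p = 0.0438). Rab3d did not pass without 16 h replicate 2 or 3 or 48 h replicate 2 or 3, nor with no filter, quantile normalization, the replicate block or all 30 arrays. Tspan5, at 589.6, 525 and 697 at 16 h and 91.4, 400.4 and 474 at 48 h, had replicate 1 at 48 h below the floor, and without that array its change was -0.46 (adjusted p = 0.0725). Tspan5 also did not pass without 16 h replicate 1, 2 or 3, with adjusted p of 0.0535 to 0.0969.

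Several genes for the defence against oxidants and electrophiles fell. Of 24 tested antioxidant genes 9 fell, against 4.93% of all genes, and 0 rose. The median was -0.21, and 20 of the 24 lay below 0. Many of these genes are known targets of the transcription factor Nrf2, which binds the antioxidant response element with a small Maf partner. Hmox1, which cleaves haem, gave 9816, 11881 and 10311 at 16 h and 3886, 3952 and 5918 at 48 h (-1.24 ± 0.26, adjusted p = 0.00462). Pgd, an NADPH-producing enzyme of the pentose phosphate pathway, gave 8346, 11185 and 11537 at 16 h and 4376, 5147 and 4268 at 48 h (-1.16 ± 0.22, adjusted p = 0.00239). Both had every 48 h array below every 16 h array, by wide margins. The means of Hmox1 at earlier times were 16309.5 ± 1135 at 0 h and 25035 ± 2606 at 8 h (mean ± SD, n = 3), and those of Pgd were 4919 ± 1065 at 0 h and 7498 ± 724 at 8 h. Nqo1, a quinone reductase, gave 17477, 21589.9 and 18578 at 16 h and 13189.9, 8574 and 10728 at 48 h (-0.84 ± 0.19, adjusted p = 0.00713; -0.94 with adjusted p = 0.0104 on its other probe set). Its 48 h arrays were spread more widely than its 16 h arrays, and without 48 h replicate 2 its adjusted p was 0.0533.

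Srxn1, which repairs oxidised peroxiredoxins, changed by -0.98 ± 0.23, adjusted p = 0.00985 on its brighter probe set and by 0.21 (adjusted p = 0.441) on the other, so its direction depends on the probe set. Without 16 h replicate 2 or 48 h replicate 2 the brighter one had adjusted p of 0.0513 and 0.0704. Gpx2, a glutathione peroxidase of epithelia, gave 13282, 13248 and 13755 at 16 h and 5329, 8988 and 8949 at 48 h (-0.83 ± 0.23, adjusted p = 0.0281). Its call was lost without 48 h replicate 1 or any 1 of the 16 h arrays. The remaining 4 members that fell are outside the naming rule and complete the count. They were Gclc (-0.73 ± 0.21) and Gclm (-0.72 ± 0.18), the catalytic and modifier subunits of the enzyme that limits glutathione synthesis, Gsr, which regenerates glutathione (-0.51 ± 0.10), and Txnrd1, which does so for thioredoxin (-0.48 ± 0.10). Gclc did not pass without 16 h replicate 1, 2 or 3 or 48 h replicate 2, and Gclm not without 16 h replicate 3 or 48 h replicate 2. The list's count of genes that fell was 5 without 48 h replicate 2 and 6 to 9 without any other of the 6 arrays. Nfe2l2, the gene of Nrf2 itself and also outside the rule, changed by -0.43 ± 0.24 without passing (adjusted p = 0.287), and Maff, a small Maf, fell from 252, 286 and 223 to 155, 176 and 99.1, with replicate 3 at 48 h below the floor, at least 1.73-fold (adjusted p = 0.014). Maff did not pass without 16 h replicate 2 or 48 h replicate 3. Outside the list, Ptgr1, a prostaglandin and alkenal reductase, gave 3883, 5643 and 5269.5 at 16 h and 2240.3, 1699.6 and 2857 at 48 h (-1.14 ± 0.25, adjusted p = 0.00658). Blvra, which reduces the biliverdin that Hmox1 makes, gave 1146, 1718 and 1157 at 16 h and 473, 441 and 400.4 at 48 h (-1.59 ± 0.38, adjusted p = 0.0107), with adjusted p = 0.0605 without 16 h replicate 2. In Ptgr1 and Blvra alike all 48 h arrays lay below the lowest 16 h array, which the naming rule required of them.

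The RefSeq promoter table (GRCm38.p6) was searched for the core of the antioxidant response element, because 9 genes of one list fell together. The motif was TGACNNNGC, on either strand, in the 250 bases before each gene start. It was present in 10.2% of 32851 windows and in 13.5% of the 4369 tested genes with a window. Of the 9 antioxidant genes that fell, 6 had a window and 2 held the motif, and of the 15 that did not pass, 14 had a window and 2 held it, Sod1 and Nfe2l2. Of 10 proteasome genes that fell, described next, 8 had a window and 2 held it. Of the 22 others 18 had a window and 3 held it. The matches of the 4 genes that fell are printed to show which letters were found, with the match in capitals, at most 30 bases on either side and no base past the gene start. The 4 genes were chosen after their values were seen.
Gclm, chr3:122245393-122245461, plus strand, match starting 134 bases before the start: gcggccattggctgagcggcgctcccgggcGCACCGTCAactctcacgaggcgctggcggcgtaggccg
Txnrd1, chr10:82859084-82859152, plus strand, match starting 92 bases before the start: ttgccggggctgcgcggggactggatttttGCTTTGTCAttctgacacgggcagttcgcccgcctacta
Psmb5, chr14:54618004-54618072, minus strand, match starting 47 bases before the start: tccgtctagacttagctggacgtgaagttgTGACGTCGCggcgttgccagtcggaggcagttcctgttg
Psmb6, chr11:70525318-70525356, plus strand, match starting 9 bases before the start: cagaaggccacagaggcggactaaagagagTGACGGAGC
In Gclm and Txnrd1 the motif reads on the strand opposite to the gene, and in Psmb5 and Psmb6 on the gene's own strand. A match describes letters and not binding.

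Some subunits of the proteasome, the protease that degrades ubiquitin-tagged proteins, fell by small amounts. Of 32 tested subunits 10 fell, against 4.93% of all genes, and 0 rose, with a median of -0.30 and 28 of 32 below 0. Psma5, a ring subunit of the catalytic core, gave 6864, 8688 and 7736 at 16 h and 5642, 4915 and 5078 at 48 h (-0.57 ± 0.10, adjusted p = 0.00148). Psma4, of the same ring, gave 9334, 10674 and 11158 at 16 h and 7597, 6651 and 7455 at 48 h (-0.52 ± 0.09, adjusted p = 0.00153). Psmd4, the ubiquitin receptor of the cap, gave 8227, 8839.5 and 8386 at 16 h and 6454, 5736 and 6385 at 48 h (-0.46 ± 0.09, adjusted p = 0.00356). The times did not overlap in any of the 3, and each passed with any 1 of the 6 arrays left out. Psmb7 (-0.48 ± 0.11) and Psma1 (-0.46 ± 0.11) also fell, Psmb7 not without 48 h replicate 2 and Psma1 not without replicate 2 of either time. The other 5 were Psma7, Psmc3, Psmb5, Psmb6 and Psma3, outside the naming rule, with changes of -0.42 to -0.30, and none of the 5 passed without 16 h replicate 2. The count was 4 without 48 h replicate 2, 5 without 16 h replicate 2 and 19 without 48 h replicate 1. In the fit of the 6 arrays alone 0 of the 32 passed in limma, with 9 at an unadjusted p under 0.05. Of 22 tested ribosomal protein genes 0 passed in limma, 1 at an unadjusted p under 0.05, with a median of -0.05.

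**Figure D2:**
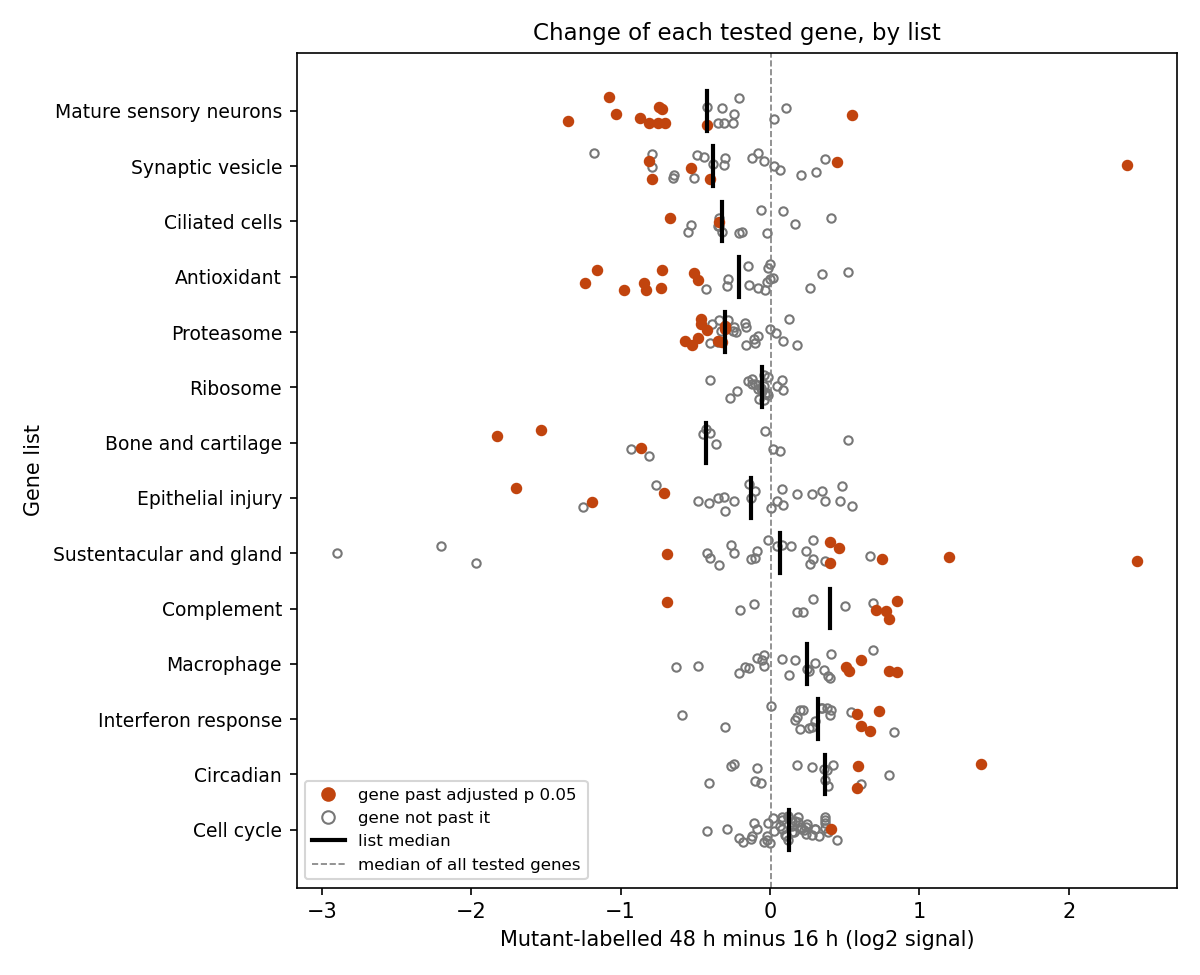
Log2 change from 16 to 48 h of every tested gene in 14 lists; filled points passed the adjusted threshold, bars are list medians and the dashed line is the median of all tested genes at 0.01. Filled points of the mature neuron, antioxidant and proteasome lists lie mostly to the left, and those of the complement, macrophage, interferon and circadian lists mostly to the right.

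Some genes of detoxifying enzymes rose. Cyp1a1, a cytochrome P450 induced through the aryl hydrocarbon receptor, gave 1076, 1093 and 804 at 16 h and 6488, 4898 and 4927 at 48 h, a 5.49-fold rise (2.46 ± 0.48, adjusted p = 0.00295). Its relative Cyp1a2 gave 10824, 12197 and 12827 at 16 h and 27418, 30001 and 25083 at 48 h (1.20 ± 0.19, adjusted p = 0.000795). Fmo5, of the flavin monooxygenase family, gave 1066, 1089 and 904 at 16 h and 4021, 3949 and 3522 at 48 h (1.91 ± 0.28, adjusted p = 0.000354). All arrays at 48 h were above all at 16 h, which the naming rule required of Fmo5, a gene named for the size of its rise. Of all tested genes 23.6% did not overlap between the times. Each of the 3 genes passed under every alternative run. The mean of Cyp1a1 was 2706 ± 306 at 0 h and 512 ± 122 at 8 h, and that of Fmo5 2294 ± 385 and 884 ± 165 (SD, n = 3). Mgst2, a microsomal glutathione transferase, gave 1638, 1191 and 1979 at 16 h and 5584, 4800.5 and 5207 at 48 h (1.73 ± 0.32, adjusted p = 0.00217), against 1301 ± 346 at 0 h.

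Of 28 tested genes of sustentacular cells and glands 6 rose and 1 fell, against 4.39% and 4.93% of all genes, with a median of 0.07. Besides Cyp1a1 and Cyp1a2 these were Cbr2, a carbonyl reductase (0.75 ± 0.15), Gstm5 (0.46 ± 0.14), and Gstm2 (0.40 ± 0.10) and Fmo1 (0.40 ± 0.12), while the sulfotransferase gene Sult1d1 fell (-0.69 ± 0.16). Gstm2 is outside the naming rule and completes the count. Glutathione transferases of this class are related in sequence, so their probe sets may share targets. Of the 3 other tested Gstm5 probe sets 2 passed (0.60 and 0.94) and 1 did not (0.12, adjusted p = 0.888). Gstm5 did not pass without 16 h replicate 1, 2 or 3 or 48 h replicate 2 or 3, Fmo1 not without 5 of the 6 arrays and Sult1d1 not without 48 h replicate 2. The count of genes that rose was 4 or 5 with any 1 of the 6 arrays left out.

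Further enzymes and membrane proteins rose with them. Pxmp2, a channel of the peroxisomal membrane, gave 1108, 1590.0 and 958 at 16 h and 3201, 4483 and 2986 at 48 h (1.56 ± 0.22, adjusted p = 0.000244). Acy1, an aminoacylase, gave 1396, 1832 and 1388 at 16 h and 3827, 4392 and 3698 at 48 h (1.38 ± 0.25, adjusted p = 0.00175). Crym, which binds thyroid hormone in the cytosol, gave 1460.3, 1690.4 and 1639.9 at 16 h and 4249.7, 3674 and 2975 at 48 h (1.17 ± 0.19, adjusted p = 0.000999). None of these overlapped between times, which the naming rule required of them, and the 0 h mean of Acy1 was 3177 ± 536. Rgr, an opsin-like receptor of the retina, rose 2.58-fold (1.37 ± 0.23, adjusted p = 0.00145), and the poorly described gene AU021092 2.59-fold (1.38 ± 0.23, adjusted p = 0.00101). Ect2, a gene of cytokinesis, gave 513, 597 and 546 at 16 h and 1901, 2263 and 1312 at 48 h (1.69 ± 0.29, adjusted p = 0.00148), and its 0 h mean was 1789.8 ± 273. Car4, a membrane carbonic anhydrase, gave 346, 547 and 395 at 16 h and 1255, 1544 and 948 at 48 h (1.54 ± 0.25, adjusted p = 0.000838), but its other probe set changed by -0.14 (adjusted p = 0.643).

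**Figure D3:**
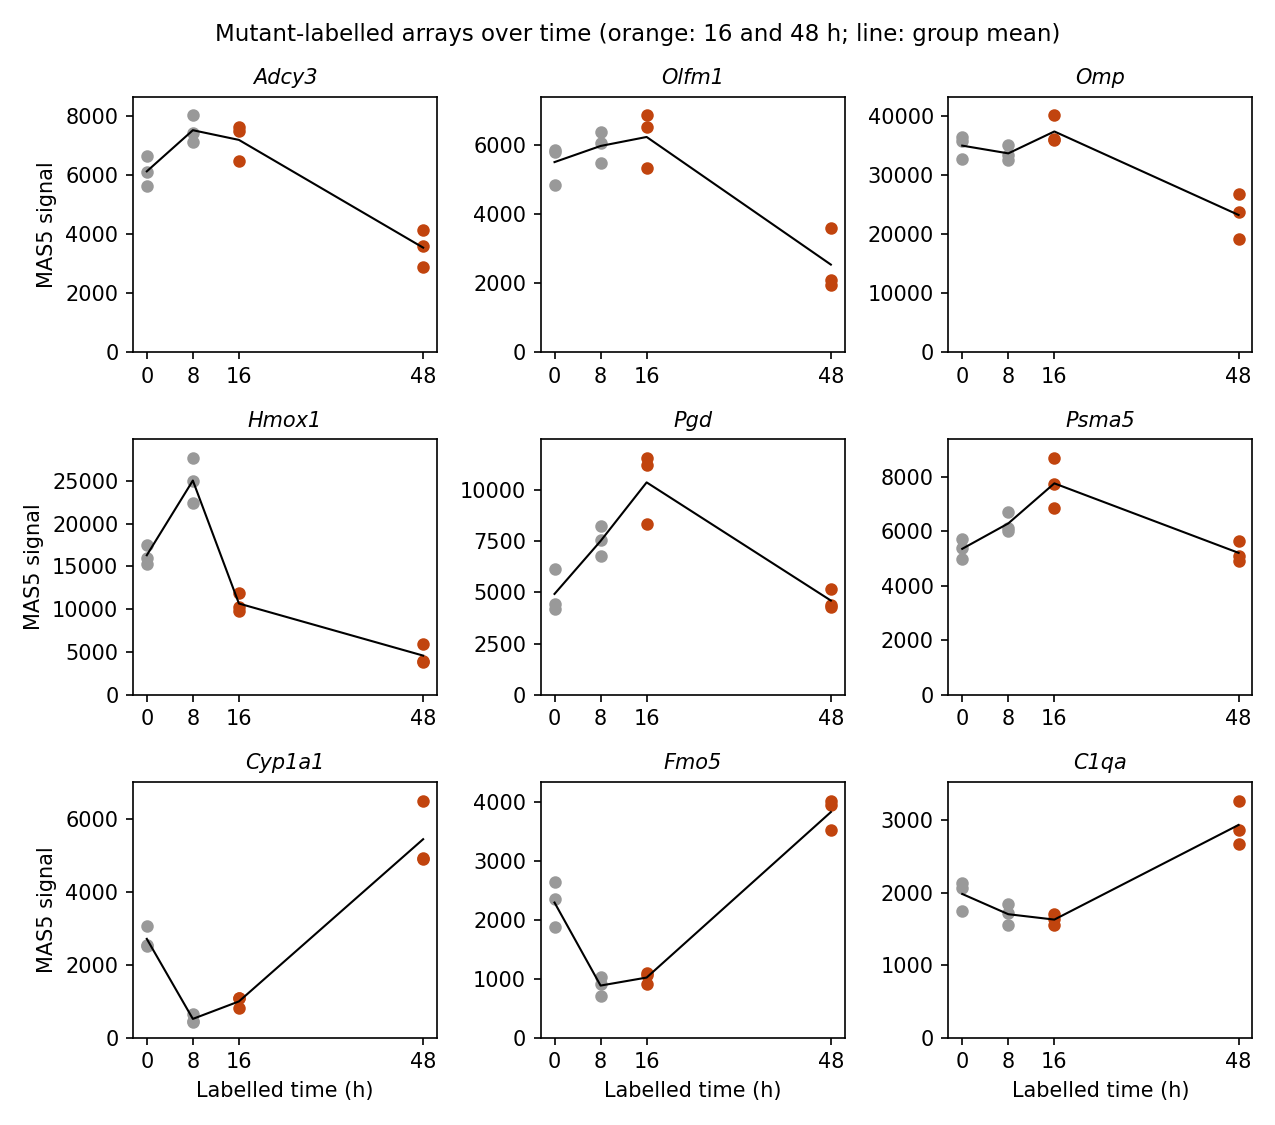
MAS5 signal of 9 genes in the mutant-labelled arrays at 0, 8, 16 and 48 h, without the 2 h arrays; points are arrays, lines join the means of 3 and the 16 and 48 h arrays are orange, with each axis starting at 0. The 3 neuronal genes of the top row drop after 16 h, Pgd and Psma5 peak at 16 h, and Cyp1a1 and Fmo5 are low at 8 and 16 h.

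Secretory gland genes differed widely among the 48 h arrays themselves. Lcn3, a lipocalin of nasal glands, gave 21338, 30350.2 and 9289 at 16 h and 12870.5, 139 and 34589 at 48 h. The related Lcn4 gave 44699, 43704 and 27200.2 at 16 h and 19261, 17.2 and 58154 at 48 h, and Dmbt1, a mucosal glycoprotein, 14591, 20392 and 5291 at 16 h and 2923, 287 and 31191 at 48 h. In all 3 genes 48 h replicate 2 was the lowest of the 6 arrays and replicate 3 the highest, and no change passed (adjusted p of 0.251, 0.152 and 0.333). These genes were chosen after their values were seen. The summed signal of the 3 measured markers of mature neurons in 48 h replicates 1, 2 and 3 was 36070, 26837 and 36944, against 53769 to 57166 at 16 h, so replicate 2 was also the lowest there. The part of these differences in the other results was not tested.

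Several complement genes rose. Of 12 tested complement genes 4 rose and 1 fell, against 4.39% and 4.93% of all genes, with a median of 0.40. C1qc, a chain of the recognition molecule C1q that tissue macrophages make, gave 2753, 2268 and 2332 at 16 h and 4030.2, 4598 and 4186 at 48 h (0.80 ± 0.18, adjusted p = 0.00754). C1qa, another chain, gave 1699, 1549 and 1634 at 16 h and 2862, 3265 and 2673 at 48 h (0.85 ± 0.19, adjusted p = 0.00715). The third chain, C1qb, gave 1741, 1747 and 1754 at 16 h and 2554, 3199 and 2721 at 48 h and did not pass (0.69 ± 0.23, adjusted p = 0.0611), although its arrays did not overlap either; it is outside the naming rule. C2, a serine protease of the classical pathway, gave 682, 504 and 627 at 16 h and 886, 1017 and 1222 at 48 h (0.78 ± 0.17, adjusted p = 0.00724), and C9, a pore-forming component, 387, 296 and 495 at 16 h and 580.3, 696 and 615 at 48 h (0.71 ± 0.15, adjusted p = 0.00471). Cd55, which limits complement on host cells, gave 1714, 1754 and 1365 at 16 h and 937, 1064 and 981 at 48 h (-0.69 ± 0.14, adjusted p = 0.00471), with no overlap between times. The count of 4 stood with any 1 of the 6 arrays left out. With all 30 arrays fitted, C1qa did not pass (adjusted p = 0.396).

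Among 25 tested macrophage genes 5 rose, against 4.39% of all genes, and 0 fell, with a median of 0.25. The 5 were C1qa, C1qc, Mpeg1, a pore-forming protein (0.61 ± 0.18), Apoe, a lipid carrier whose arrays overlapped (0.53 ± 0.15), and Cd68, a lysosomal glycoprotein (0.51 ± 0.16). Mpeg1 did not pass without any 1 of the 16 h arrays, without 48 h replicate 2 or 3, or with no filter, quantile normalization, the replicate block or all 30 arrays. Apoe was lost without replicate 1 or 3 at 16 h, replicate 2 or 3 at 48 h, or the filter. Cd68 was lost without replicate 2 or 3 of either time, and with no filter, the block or all 30 arrays. Mpeg1, Apoe and Cd68 were also lost in the fit of the 6 arrays alone. The count was 2 without 16 h replicate 3 or 48 h replicate 2 or 3, 3 without 16 h replicate 1, 2 with all 30 arrays or no filter, and 3 with the replicate number as a block. The summed signal of 36 genes of the macrophage list lay between 63594 and 76962 at 16 h and between 80604 and 93541 at 48 h. Lyz2, the lysozyme of myeloid cells, gave 7744, 6001 and 6447 at 16 h and 6206, 8160.0 and 10052 at 48 h with overlapping arrays (0.25 ± 0.28, adjusted p = 0.623), and the receptor Csf1r, named for its role outside the rule, changed by 0.08 ± 0.14 (adjusted p = 0.791). Neutrophil genes were not called in limma in either direction, 0 of 10 tested, and 0 had an unadjusted p under 0.05. S100a8 gave 5404, 4085 and 2763 at 16 h and 2368, 4756 and 4344 at 48 h and S100a9 3499.5, 2389.5 and 1636 at 16 h and 1491, 2391 and 2468 at 48 h, overlapping between times. The T cell markers Cd3e, Cd3g and Cd8a were below the floor in all 6 arrays.

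Of 41 tested lysosomal genes 6 rose and 2 fell, against 4.39% and 4.93% of all genes, with a median of 0.11. The 2 that fell were Ctsk, described with the bone genes, and Neu1, a sialidase (-0.54 ± 0.16, adjusted p = 0.036). Neu1 did not pass without 16 h replicate 2 or without any 1 of the 48 h arrays. The same held with no filter, with all 30 arrays and with the 6 arrays alone. Man2b1, a mannosidase, gave 1958, 1982 and 1969.8 at 16 h and 2818, 3168 and 3252 at 48 h (0.64 ± 0.10, adjusted p = 0.000392). Its other tested probe set changed by 0.44 (adjusted p = 0.307). Grn, the lysosomal and secreted progranulin, gave 1506, 1697 and 1508 at 16 h and 2334, 2629 and 2592 at 48 h (0.68 ± 0.12, adjusted p = 0.00178). Idua, an iduronidase, gave 283, 346 and 379 at 16 h and 507, 671 and 590.4 at 48 h (0.81 ± 0.14, adjusted p = 0.00178). The times did not overlap in any of the 3, and the 16 h arrays of Man2b1 were almost equal. Ctsl, a cathepsin, gave 7799, 9189 and 7659 at 16 h and 8573, 6826 and 8927 at 48 h and did not pass (adjusted p = 0.954). Of 22 tested interferon-response genes 4 rose, against 4.39% of all genes, and 0 fell, with a median of 0.32. Isg15, a ubiquitin-like modifier, gave 699, 718 and 582 at 16 h and 882, 1329 and 1129.5 at 48 h (0.73 ± 0.14, adjusted p = 0.00289). Trim25 (0.67 ± 0.19), Ifi27 (0.61 ± 0.18) and Irgm1 (0.58 ± 0.17) rose too, and these 3 did not pass without 48 h replicate 2 or 3 and 2 or 3 of the 16 h arrays in turn. Of 10 tested genes of MHC class II antigen presentation 2 rose, against 4.39% of all genes, H2-DMa (0.49 ± 0.11) and H2-Eb1 (0.63 ± 0.20). H2-DMa did not pass without 48 h replicate 2, and H2-Eb1 not without 16 h replicate 1, 2 or 3 or 48 h replicate 2.

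Cholesterol genes moved in both directions. Of 27 tested genes 5 rose and 4 fell, against 4.39% and 4.93% of all genes, with a median of 0.12. Those that rose serve the transport or control of lipids, Apoe and Abcg1 among them. Abcg1, outside the naming rule and named to complete the count, changed by 0.35 ± 0.10, adjusted p = 0.0321, and it did not pass without any 1 of the 16 h arrays, without 48 h replicate 2 or 3, or with all 30 arrays. Scarb1, a receptor for high-density lipoprotein, gave 3289.6, 1632 and 3906 at 16 h and 5196, 4997 and 5077 at 48 h (0.88 ± 0.20, adjusted p = 0.00705). Abca1, which exports cholesterol, gave 2157, 2302 and 2411 at 16 h and 3680.3, 3352 and 3223 at 48 h (0.58 ± 0.11, adjusted p = 0.00297; 0.51 with adjusted p = 0.137 on its other probe set). Srebf1, a regulator of lipid synthesis, gave 4756, 3785 and 4823 at 16 h and 6475, 6920.5 and 6400.3 at 48 h (0.57 ± 0.12, adjusted p = 0.00563). In these 3 the 48 h arrays were uniform and above the 16 h arrays. The 4 that fell are enzymes of sterol synthesis, Idi1 (-0.75 ± 0.20), Msmo1 (-0.70 ± 0.19), Hmgcs1 (-0.57 ± 0.17) and Fdft1 (-0.45 ± 0.13). Idi1 did not pass without 16 h replicate 1 or 48 h replicate 2 or 3. Each of the other 3 was lost without any of those arrays and without at least 1 further array. Hmgcs1 and Fdft1 are outside the naming rule and complete the count.

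Calb1 encodes calbindin, a calcium-binding protein of some neurons. It gave 19, 23.3 and 99.5 at 16 h and 538, 711 and 553 at 48 h, with all 3 arrays at 16 h below the floor, so the rise was at least 5.24-fold (adjusted p = 0.000121). At 0 and 8 h its mean was 1100.5 ± 340.1 and 392 ± 75.4 (SD, n = 3), so that 16 h was the lowest of these 4 times. Bcan, brevican, a proteoglycan of the nervous system matrix, gave 384, 171 and 120.3 at 16 h and 772, 958 and 708 at 48 h (2.02 ± 0.47, adjusted p = 0.00985), with 16 h replicate 1 well above the other 2. Without 16 h replicate 3 its change was 1.65 (adjusted p = 0.0553).

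Of 7 tested smooth muscle genes, a list chosen after the values were seen, 5 rose, with a median of 0.77. Myh11, the smooth muscle myosin heavy chain, gave 472, 516 and 477 at 16 h and 744, 2175 and 1072 at 48 h (1.30 ± 0.34, adjusted p = 0.0202). Its level in 48 h replicate 2 was far above the other 2, and without that array the change was 0.87 (adjusted p = 0.141). It did not pass without 16 h replicate 2 or 3 either (adjusted p of 0.051 and 0.0522). Chosen after their values were seen, Acta2, smooth muscle actin, gave 5023, 3941 and 4224 at 16 h and 7643, 12196 and 6324 at 48 h, and Actg2, its enteric form, 846, 686 and 938 at 16 h and 1174, 1888 and 1512 at 48 h. Acta2 did not pass without replicate 2 of either time (adjusted p of 0.0518 and 0.0845). The summed signal of 9 smooth muscle genes was between 14722 and 15389 at 16 h and was 20212, 33410 and 19984 in 48 h replicates 1, 2 and 3. Of 12 tested endothelial genes 0 passed in limma, 4 at an unadjusted p under 0.05. The part of these cells in the other results was not tested.

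Of 18 tested clock genes 3 rose at 48 h, against 4.39% of all genes, and 0 fell, with a median of 0.37. The times lie 32 h apart and the labels give no hour of sampling, so that time of day and time after the operation cannot be told apart. Dbp, a transcription factor under direct clock control, gave 444, 411 and 426 at 16 h and 1074, 1352 and 1009 at 48 h (1.41 ± 0.31, adjusted p = 0.00619). Per2, a repressor in the clock loop, gave 795, 629.5 and 758 at 16 h and 1053, 1125 and 1094 at 48 h (0.59 ± 0.14, adjusted p = 0.0111), and Bhlhe40, another repressor, 984, 1102 and 1033 at 16 h and 1487, 1363 and 1836 at 48 h (0.58 ± 0.17, adjusted p = 0.0388). The 2 times did not overlap in these genes. Per2 did not pass without 16 h replicate 2 (adjusted p = 0.0701), and Bhlhe40 not without 16 h replicate 1, 2 or 3 or 48 h replicate 3 (0.0717 to 0.157). Per1 gave 1052, 580.0 and 614 at 16 h and 1556, 587 and 1458 at 48 h, with 48 h replicate 2 as low as the 16 h arrays (0.61 ± 0.38, adjusted p = 0.344). Nr1d1 (0.39 ± 0.30) and Arntl (-0.06 ± 0.16) did not pass.

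Some bone genes fell. Of 13 tested bone and cartilage genes 3 fell, against 4.93% of all genes, and 0 rose, with a median of -0.43. Ibsp, bone sialoprotein, gave 7085, 8293 and 6450.2 at 16 h and 2408, 2356 and 2783 at 48 h (-1.53 ± 0.36, adjusted p = 0.0106). Dmp1, a matrix protein of osteocytes, gave 502, 837 and 1376 at 16 h and 269, 205 and 235 at 48 h (-1.83 ± 0.49, adjusted p = 0.0217), and Ctsk, the collagenase of osteoclasts, 7342, 10653 and 8117 at 16 h and 4535, 4624 and 5025 at 48 h (-0.86 ± 0.22, adjusted p = 0.0193). The 48 h arrays were close together and below all 16 h arrays. Dmp1 did not pass without 16 h replicate 2 or 3 or 48 h replicate 2 or 3 (0.0564 to 0.102), and Ctsk not without replicate 2 of either time. The summed signal of 20 bone and cartilage genes was 43085 to 52787 at 16 h and 28135 to 31820 at 48 h. The share of bone in the dissected pieces was not measured, and its part in the other results was not tested.

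Of 46 tested genes of the extracellular matrix 4 fell, against 4.93% of all genes, and 0 rose, with a median of 0.00. Lox, which cross-links collagen, gave 2058, 1928 and 1893 at 16 h and 993, 1084 and 1244 at 48 h (-0.83 ± 0.19, adjusted p = 0.00775), with tight and separate groups. Col5a2 (-0.96 ± 0.22), Tnc (-0.91 ± 0.27) and Col1a2 (-0.83 ± 0.23; 0.08 on its other probe set) were less stable. Col5a2 did not pass without 16 h replicate 2, Tnc not without 16 h replicate 1 or 2 or 48 h replicate 1 or 3, and Col1a2 not without 16 h replicate 2 or 3 or 48 h replicate 1 or 3. Col1a1, the main chain of type I collagen, gave 34771, 38085 and 41755 at 16 h and 20576, 40391 and 14281 at 48 h, with 48 h replicate 2 inside the 16 h range (-0.74 ± 0.26, adjusted p = 0.0772). The other tested Col1a1 probe set changed by -0.24 (adjusted p = 0.411). Mmp14, a membrane-bound matrix metalloproteinase, gave 3109, 3664 and 3950.0 at 16 h and 1506, 1799.5 and 2285 at 48 h (-0.95 ± 0.19, adjusted p = 0.00356).

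Of 25 tested epithelial injury genes 3 fell and 0 rose, with a median of -0.13, against 4.93% of all genes falling. Plaur, the urokinase receptor, gave 221, 405 and 272 at 16 h and 154, 118 and 96.3 at 48 h, with 1 array at 48 h below the floor, so that it fell at least 2.28-fold (adjusted p = 0.004). Anxa1, an annexin that limits inflammation, gave 22124, 25464 and 24949 at 16 h and 13569, 13456 and 17706 at 48 h (-0.71 ± 0.16, adjusted p = 0.00971), and its 2 other tested probe sets changed by -0.63 and -1.08. Without 48 h replicate 2 its adjusted p was 0.0529. Sprr1a, a cornified envelope protein that regenerating neurons also make, gave 2951, 3560.4 and 5071 at 16 h and 1099, 1399 and 1018 at 48 h (-1.70 ± 0.51, adjusted p = 0.0392), and 16 h replicate 1 was the only array without which it still passed. Of 8 tested chemokine genes 0 passed in limma, 2 at an unadjusted p under 0.05, and of 16 tested cytokine genes 1 fell. Il1rn, the antagonist of the interleukin 1 receptor, gave 197, 246 and 185 at 16 h and 41, 49.2 and 56.3 at 48 h, all 3 arrays at 48 h below the floor, a fall of at least 1.83-fold (adjusted p = 0.0316) that did not pass without 16 h replicate 1 or 2 or 48 h replicate 2 or 3. Cxcl1 gave 609, 1036 and 261 at 16 h and 55, 384 and 240.4 at 48 h, with overlap and 1 array at 48 h below the floor, and did not pass (at least 2.5-fold lower, adjusted p = 0.0982). Il1b gave 269, 462 and 251 at 16 h and 56.1, 319 and 129 at 48 h, also with overlap and 1 array below the floor (at least 1.88-fold lower, adjusted p = 0.159). Ccl2 gave 122, 263 and 196 at 16 h and 119, 179.9 and 155 at 48 h and was not called (adjusted p = 0.69). Slpi, a protease inhibitor of secretions, was the 1 of 22 acute phase genes that rose (3507, 4398 and 4441 at 16 h and 5565, 6628 and 5530.0 at 48 h; 0.52 ± 0.16, adjusted p = 0.0437), and it did not pass without 16 h replicate 1, 2 or 3 or 48 h replicate 2 or 3. The other tested Slpi probe set changed by 0.67 (adjusted p = 0.142). Lcn2 stayed bright at 23436, 25855 and 20619.7 at 16 h and 27508, 24154 and 26081 at 48 h without passing (adjusted p = 0.788), against 1670.4 ± 179 at 0 h.

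Of 48 tested cell cycle genes 1 rose, against 4.39% of all genes, Racgap1 (0.41 ± 0.12), which did not pass without 16 h replicate 1 or 3 or 48 h replicate 1 or 2, and the median was 0.13. Ect2, the gene of cytokinesis that rose by 1.69, is not a member of this list. Mki67 gave 464, 470.5 and 355 at 16 h and 602, 706 and 408 at 48 h (0.39 ± 0.24, adjusted p = 0.35) and Top2a 315, 288 and 257 at 16 h and 370.4, 416 and 384 at 48 h (0.45 ± 0.15, adjusted p = 0.0701); the Top2a arrays did not overlap. Of 18 tested progenitor genes 0 passed in limma, 1 at an unadjusted p under 0.05, with a median of 0.17, and Neurog1, a proneural factor, was dim at 189, 306 and 279 at 16 h and 294, 265 and 278 at 48 h. Of 33 tested immediate early genes 1 fell, Maff. Fos (0.26 ± 0.35), Egr1 (0.08 ± 0.28), Nr4a1 (0.11 ± 0.41) and Atf3 (0.15 ± 0.30) had adjusted p of at least 0.693. Of 36 tested heat shock and chaperone genes 3 fell, against 4.93% of all genes, with a median of -0.17. Cacybp, a partner of ubiquitin ligases, was among the 3 (-0.61 ± 0.13, adjusted p = 0.0056). The heat shock gene Hspa1a gave 1150.1, 914 and 1603 at 16 h and 1203, 1328 and 1376 at 48 h, against a mean of 15416 ± 2889.6 at 8 h. Its near-identical copy Hspa1b gave 1712, 1408 and 1372 at 16 h and 988, 1410.2 and 1553 at 48 h, against 15422 ± 1859.5 at 8 h. Fkbp5, induced by glucocorticoids, was not called (0.09 ± 0.20, adjusted p = 0.823). Gapdh, as a control probe set, gave 45028, 51519 and 44122 at 16 h and 39955, 42402 and 46384 at 48 h. Bnip3, a mitochondrial death and mitophagy gene of the hypoxia response, fell from 3442, 3644 and 3630.5 to 2298, 2128 and 2215 (-0.69 ± 0.11, adjusted p = 0.000999), while Pdk1, a kinase that restrains pyruvate oxidation, rose from 1556, 1265 and 1460.2 to 2364, 2269.5 and 2478 (0.74 ± 0.12, adjusted p = 0.0007). Both had narrow groups that lay apart.

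The wild-type-labelled arrays gave the same interval without sharing any array. There 117 genes (2.17%) rose and 137 (2.54%) fell. Of the 503 genes called in the mutant-labelled and the 254 in the wild-type-labelled epithelium 76 were called in both, which is 15.1% of the first and 29.9% of the second, and 72 of the 76 went the same way. Of the mature neuron list 7 of 20 genes fell in the wild-type-labelled arrays, with a median of -0.41, and the difference between genotypes passed for 0 of 20 in limma, 3 at an unadjusted p under 0.05. Adcy3 changed there by -0.67 (adjusted p = 0.00549) and Omp by -0.49 (adjusted p = 0.0104). Of the antioxidant list 0 of 24 passed there in limma and of the proteasome list 0 of 32, with medians of -0.08 for each and 4 and 5 genes at an unadjusted p under 0.05. The difference itself passed for 2 antioxidant genes, which had opposite signs. They were Gsr (-0.61) and, outside the naming rule, Prdx2 (0.54, adjusted p = 0.0303). Gsr lost this call in 7 of 12 fits that each left out 1 array. Of the 24 antioxidant genes 10 had an unadjusted p under 0.05 for the difference in limma. The difference passed for 0 proteasome genes in limma, 4 at an unadjusted p under 0.05. For Hmox1 it was -1.05 ± 0.37 (adjusted p = 0.183). Cyp1a1 changed by 0.08 in the wild-type-labelled arrays, and its difference between genotypes did not pass (adjusted p = 0.0955).

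The difference between the genotypes' changes passed in 69 probe sets and in 51 genes, 25 (0.463%) with the more positive change in the mutant-labelled tissue and 26 (0.482%) with the more negative. The probe set count was 229 without wild-type-labelled 48 h replicate 2, 107 without mutant-labelled 48 h replicate 3, and 19, 26, 23 and 33 without wild-type-labelled 48 h replicate 3, 48 h replicate 1, 16 h replicate 3 and mutant-labelled 48 h replicate 2. Inflammatory genes were among the 26. Cxcl2, a neutrophil attractant, went in the wild-type-labelled tissue from 592, 181 and 47.6 to 5200.0, 3463 and 7909, against 96.9, 78.1 and 44 at 16 h and 74.9, 109 and 204 at 48 h in the mutant-labelled arrays. Its 3 wild-type-labelled arrays at 48 h stood above the other 9. Il6, a cytokine that drives the acute phase, gave 70.4, 107 and 99.7 and then 788, 1526 and 1754 in the wild-type-labelled arrays, against 48.2, 168 and 62.3 at 16 h and 7.2, 8.7 and 137 at 48 h. Saa3, an acute phase protein, gave 743, 255 and 414 and then 5396, 5732 and 3575, against 286, 101 and 193 at 16 h and 85.4, 131 and 224 at 48 h, and Mmp3, stromelysin, 113, 344 and 138 and then 1935, 2417 and 1036, against 173, 102 and 84.6 at 16 h and 8.3, 76.6 and 121 at 48 h. For each of these genes the difference passed under every alternative run. Plaur and Il1rn fell in the mutant-labelled and rose in the wild-type-labelled arrays, where Plaur changed by 1.10 (adjusted p = 0.0105) and Il1rn by 1.88 (adjusted p = 0.000103). Fmo1, a flavin monooxygenase, rose in the one (0.40 ± 0.12) and fell in the other (-0.81 ± 0.12). Calb1 stayed below the floor in all 6 wild-type-labelled arrays. Pkn2, a protein kinase, gave 708, 600.2 and 672 at 16 h and 1089.8, 1008 and 947 at 48 h in the mutant-labelled arrays (0.62 ± 0.08, adjusted p = 8.06e-05) and -0.08 as its change in the others.

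**Figure D4:**
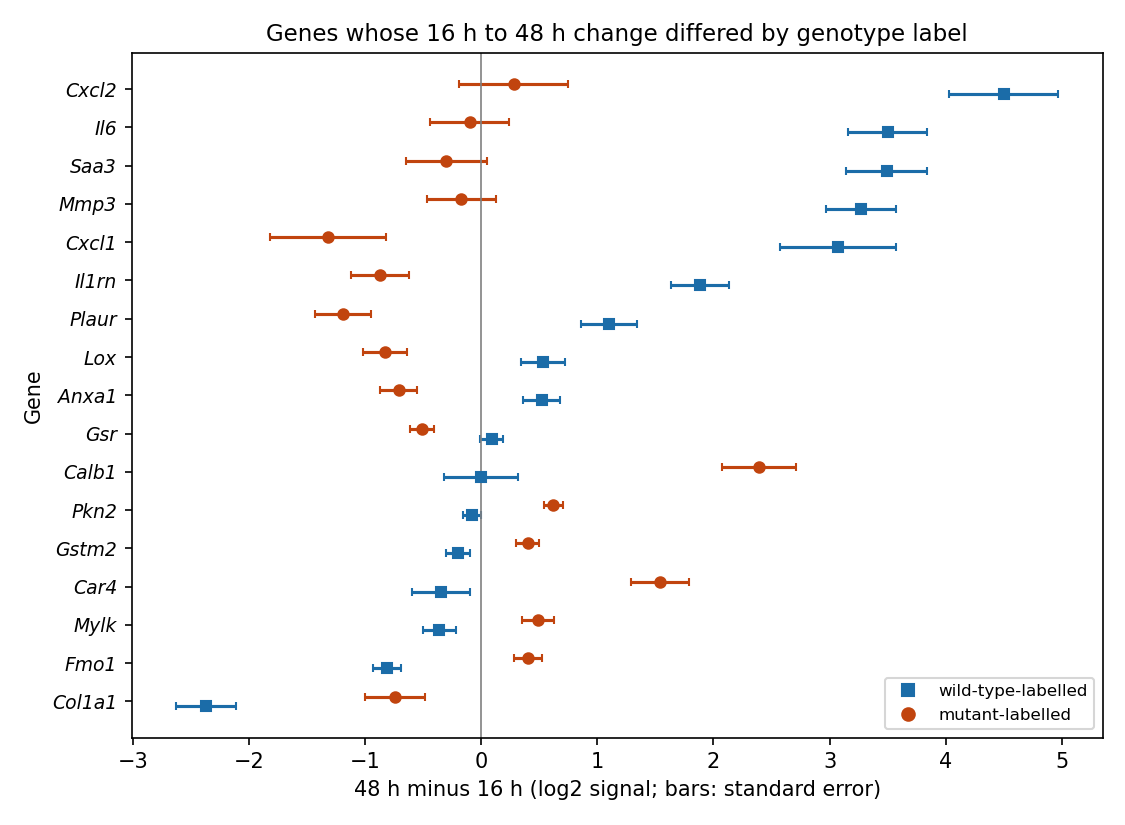
Log2 change from 16 to 48 h in wild-type-labelled (squares) and mutant-labelled (circles) arrays for 17 of the 51 genes whose change differed between genotypes, those of the naming rule and the list members called in the mutant-labelled arrays; bars are standard errors, 3 arrays per group. Cxcl2, Il6, Saa3, Mmp3 and Cxcl1 lie at 3.07 or more in the wild-type-labelled arrays and at 0.28 or below in the mutant-labelled ones.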

How the data were processed

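Signals were read from the series' value table, in which the authors deposited 1 linear MAS5 signal intensity per probe set and array (Affymetrix MG-U74Av2), per the submitters' processing notes, with no version stated there. All 30 arrays had 2% trimmed means of 1500.7 to 1500.9, a common scale. Total RNA came from microdissected tissue, per the labels.

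Before log2, low signals were raised to 113.7, the pooled 25th percentile. Tests covered the 6968 of 12488 probe sets, 66 control sets excluded, that were above the pooled median of 572 in 3 or more arrays; 5396 genes were each represented by their brightest tested probe set with 1 gene. Where arrays of the dimmer group lay at the floor, folds are given as at least that size. Group means of 9 groups (27 arrays, without the mutant-labelled 2 h arrays, which differed in RNA controls) were fitted with limma (3.58.1; R 4.3.3), and p-values were Benjamini-Hochberg adjusted, with a threshold of 0.05. The fit was tested on simulated arrays with normal noise, whose spread for each probe set was the same in all groups. It recovered 93% of 100 simulated 2-fold changes and 100% of 100 simulated 4-fold changes, and called 8 unchanged probe sets. A wider spread in the mutant-labelled 48 h group was not simulated, so its effect on the calls cannot be read from this. Members, the 40 gene lists and the naming rule were chosen with earlier results of these data known. The rule took the 15 largest rises and falls with arrays that did not overlap, up to 5 members per list, the 8 genes with the smallest p for the genotype difference and 40 fixed genes, of which not all are reported here. Alternatives were no filter, a pseudocount of 16, quantile normalization, the replicate block, all 30 arrays, only the arrays compared, a variance trend, and each array left out.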

Additional observations from a re-analysis of the deposited data

Results flagged for a closer look

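In 51 genes the change from 16 to 48 h differed between the genotype labels by the test of the difference itself. Given here are the 17 that the naming rule picked or that are list members called in the mutant-labelled arrays, and Prdx2 (0.54, adjusted p = 0.0303). Each value here is the mutant-labelled change minus the wild-type-labelled change in log2 units (limma, adjusted over the 6968 tested probe sets). Inflammatory and injury genes had the more negative values. The difference was -4.39 for Cxcl1, -4.22 for Cxcl2, -3.79 for Saa3, -3.59 for Il6, -3.45 for Mmp3, -2.75 for Il1rn and -2.29 for Plaur, with adjusted p between 0.000196 and 0.00206. In 5 of these 7, Il1rn and Plaur aside, the mutant-labelled change did not pass. Lox, at -1.36, and Anxa1, at -1.22, fell in the mutant-labelled arrays and did not pass in the others; both lost the call in the fit of only the arrays compared (adjusted p of 0.0872 and 0.0578). Without wild-type-labelled 48 h replicate 1 or 3 the adjusted p of Lox was 0.0513 and 0.0615.

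More positive values were found for Calb1, at 2.39, Car4, at 1.89, Fmo1, at 1.21, and Pkn2, at 0.70. Pkn2 did not pass with all 30 arrays (adjusted p = 0.161), and the other probe set of Car4 did not pass in the mutant-labelled arrays (-0.14, adjusted p = 0.643). With only the arrays compared the difference was lost for Car4 (adjusted p = 0.0872) and for Pkn2, Gstm2, Mylk, Gsr and Col1a1 (0.102 to 0.205). Gstm2, at 0.60, and Mylk, at 0.85, rose in the mutant-labelled arrays, and Gsr, at -0.61, fell there. Of 12 fits that each left out 1 array, the difference was lost in 10 for Gstm2, 9 for Mylk and 7 for Gsr. Col1a1, at 1.63, fell in the wild-type-labelled arrays (-2.37 ± 0.26), and its difference was not called in 8 of the 12, the fit without mutant-labelled 48 h replicate 2 being 1 of them (1.21, adjusted p = 0.07). Another tested Col1a1 probe set changed by -0.24 in the mutant-labelled arrays (adjusted p = 0.411). Arrays at the floor limit the sizes given for Cxcl1, Cxcl2, Il6, Saa3, Mmp3, Il1rn, Plaur and Calb1. The groups of 3 arrays are too small for a test of outlying arrays.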

How the results depend on the processing

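All 113 genes of the naming rule that changed kept their direction under each alternative run, and the number past the threshold moved. No filter, the replicate block, all 30 arrays, only the arrays compared and the variance trend leave the change itself as it was. Under those the direction could not turn. With only the arrays compared, 57 probe sets passed in the mutant-labelled tissue (28 up, 29 down), 48 in the wild-type-labelled and 14 for the genotype difference. That fit gave 1 mature neuron gene, 3 antioxidant genes and 0 proteasome genes down, and 2 gland, 2 complement and 2 macrophage genes up. It has fewer arrays from which to take the spread. The mutant-labelled 48 h group also had the largest median standard deviation of the 9 fitted groups, 0.197 against 0.107 to 0.179 in the others. The main fit thus took its spread in part from groups that varied less. The part of each in the lower counts was not tested. Macrophage genes up numbered 2 with no filter, 2 with all 30 arrays and 3 with the replicate block. Leaving out 1 array gave 302 to 898 probe sets in the mutant-labelled tissue, 135 to 372 up and 167 to 526 down. It gave 89 to 340 in the wild-type-labelled tissue and 19 to 229 for the genotype difference. The lists then held 8 to 11 mature neuron, 5 to 9 antioxidant and 4 to 19 proteasome genes down, and 4 to 5 gland, 4 to 4 complement and 2 to 6 macrophage genes up. The wild-type-labelled tissue had 89 without its 48 h replicate 1, 136 without 16 h replicate 3 and 147 without 16 h replicate 1. No filter gave 533, a pseudocount of 16 gave 628, quantile normalization 597, all 30 arrays 425 and the variance trend 672 in the mutant-labelled tissue. Same-numbered mutant-labelled 16 and 48 h arrays showed no common deviation (r of -0.159, 0.046 and -0.048), against -0.128 to 0.176 for arrays of unlike number. With 3 arrays per group this cannot tell whether the numbers mark a shared batch, and the main fit did not pair them. With the replicate block 587 passed, 560 of them among the 627. The low signal of dim genes near the floor of 113.7 limits their fold changes.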

Other observations

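Beyond the lists already described, 2 of 13 tested genes of glia rose in the mutant-labelled tissue between 16 and 48 h, Apod, a lipocalin of glia and fibroblasts (23637, 25278 and 23158 at 16 h and 30046, 33311 and 38198 at 48 h; 0.49 ± 0.13, adjusted p = 0.0227), and Erbb3, a neuregulin receptor of Schwann cells (3583, 2613 and 4126 at 16 h and 5060.5, 4636 and 5088 at 48 h; 0.54 ± 0.15, adjusted p = 0.0286). Neither group of arrays overlapped, and 4.39% of all genes rose. Both also rose in the wild-type-labelled arrays, by 0.55 and 0.55. Apod did not pass without 16 h replicate 1 or 3 or 48 h replicate 2 or 3, and Erbb3 not without 16 h replicate 2 or any 1 of the 48 h arrays. Basal cell genes gave 1 rise and 1 fall among 17, against 4.39% and 4.93% of all genes. The 2 were Lamb3, a laminin chain of the basement membrane (0.95 ± 0.21), and Krt8, a keratin of simple epithelia (-0.45 ± 0.14). Lamb3 did not pass without 16 h replicate 2, and Krt8 only kept its call without 48 h replicate 3. Cdkn1a, which halts the cell cycle, fell (2941, 3148 and 3095 at 16 h and 1938, 1451 and 2489 at 48 h; -0.68 ± 0.17, adjusted p = 0.013), though not without 48 h replicate 2, and Birc3, an inhibitor of apoptosis, fell (-0.93 ± 0.28), though not without 16 h replicate 2 or 3 or 48 h replicate 1 or 2. The other tested Cdkn1a probe set changed by -0.62 (adjusted p = 0.0686). Ndufs4, a subunit of respiratory complex I, fell (-0.71 ± 0.13, adjusted p = 0.00231). It was among 51 tested genes of oxidative phosphorylation, of which 3 fell, against 4.93% of all genes, 0 rose and the median was -0.01.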
